A study of Mus musculus with 16 samples.

Results

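Potassium channel genes were taken as the protein-coding genes of the GENCODE M21 annotation (mouse build mm10) whose symbols begin with Kcn, followed by letters and a number. This rule uses names only and gave 93 of 21853 protein-coding genes. They comprised 40 alpha subunits of voltage-gated channels, 15 inward rectifiers, 14 two-pore channels, 8 calcium- or sodium-activated channels and 16 auxiliary subunits. These classes were also set by symbol, so the name of a class need not describe each member. Each gene was read for 3 histone marks at its promoters, meaning no further than 1 kb from any annotated start of a protein-coding transcript, and in its gene body, meaning the rest of the annotated gene.

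The marks had been profiled by chromatin immunoprecipitation and sequencing (ChIP-seq) in hematopoietic stem cells (HSCs) from the bone marrow of C57BL/6 mice, female according to the methods, that were either 10 weeks old (young) or 20 months old (aged). HSCs were Lin- cells expressing c-kit, Sca-1 and CD150 and labelled negative for CD34, CD48, Flt3 and IL-7, and no allele or treatment was given to either group. Marrow of several mice was pooled before sorting, and 2 libraries were labelled for each mark and age, beside 2 input libraries for each age. The data used here were 6 pooled lists of enriched regions, 1 for each mark and age, so replicates could not be compared and the ages are set side by side without a test.

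Potassium channels are membrane proteins that let potassium ions leave or enter the cell and thereby set the resting membrane potential and shape electrical activity. Most family members are best known from neurons, heart, kidney and sensory cells, and a few, such as Kcnn4 and Kcna3, from red cells and lymphocytes. H3K4me3 is found at promoters of transcribed genes, H3K27me3 is deposited by Polycomb repressive complex 2 and H2AK119ub1 by Polycomb repressive complex 1, and silent developmental genes often carry both Polycomb marks.

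Promoter sequences are shown first for 7 genes that stand for the mark patterns described in the sections that follow. Each is the 250 bases before a RefSeq start site (GRCm38.p6, the assembly of mm10), written 5′ to 3′ on the strand of the gene, with CG dinucleotides in capitals. RefSeq entries were found for 68 of the 93 genes, and where a gene had several the one with most bases under H3K4me3 was taken. Over 32851 promoter entries of all genes, the median number of CG dinucleotides in such a stretch was 6, and over the 93 entries of potassium channel genes it was 7, with a range of 0 to 43. Kcnc2 and Kcnj5 carried H3K4me3 together with H3K27me3 at both ages.
Kcnc2, chr10:112270873-112271122, + strand: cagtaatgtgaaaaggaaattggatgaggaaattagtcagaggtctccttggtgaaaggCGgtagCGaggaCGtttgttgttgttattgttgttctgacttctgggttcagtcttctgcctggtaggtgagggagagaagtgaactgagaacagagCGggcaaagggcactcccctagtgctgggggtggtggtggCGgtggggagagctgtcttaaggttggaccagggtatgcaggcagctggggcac
Kcnj5, chr9:32344345-32344594, - strand: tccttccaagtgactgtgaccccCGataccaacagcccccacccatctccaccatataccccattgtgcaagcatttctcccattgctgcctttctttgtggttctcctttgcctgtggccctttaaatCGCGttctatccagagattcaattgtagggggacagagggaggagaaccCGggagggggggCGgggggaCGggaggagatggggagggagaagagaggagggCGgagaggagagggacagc
Kcnj10 and Kcnk4 were among the few with H2AK119ub1 in young HSCs, though its young regions lay outside the stretches shown.
Kcnj10, chr1:172340960-172341209, + strand: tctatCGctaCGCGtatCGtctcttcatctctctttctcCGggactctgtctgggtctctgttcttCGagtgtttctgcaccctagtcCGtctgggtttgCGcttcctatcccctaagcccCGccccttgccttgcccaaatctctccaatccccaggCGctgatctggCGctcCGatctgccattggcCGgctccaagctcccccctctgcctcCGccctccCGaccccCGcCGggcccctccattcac
Kcnk4, chr19:6934516-6934765, - strand: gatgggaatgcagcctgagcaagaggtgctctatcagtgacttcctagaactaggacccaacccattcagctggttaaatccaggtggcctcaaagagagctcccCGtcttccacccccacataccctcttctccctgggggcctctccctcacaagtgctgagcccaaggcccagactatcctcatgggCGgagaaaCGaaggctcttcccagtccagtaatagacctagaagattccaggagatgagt
Kcnab2 had H3K4me3 alone at both ages, Kcna3 had H3K4me3 in aged HSCs only, and Kcnn4 had no mark at its promoters.
Kcnab2, chr4:152477550-152477799, - strand: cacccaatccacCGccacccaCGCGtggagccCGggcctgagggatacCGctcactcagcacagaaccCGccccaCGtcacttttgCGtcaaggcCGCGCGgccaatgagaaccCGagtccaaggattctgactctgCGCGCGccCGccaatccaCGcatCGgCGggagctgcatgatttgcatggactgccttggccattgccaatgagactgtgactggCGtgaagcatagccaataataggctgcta
Kcna3, chr3:107035912-107036161, + strand: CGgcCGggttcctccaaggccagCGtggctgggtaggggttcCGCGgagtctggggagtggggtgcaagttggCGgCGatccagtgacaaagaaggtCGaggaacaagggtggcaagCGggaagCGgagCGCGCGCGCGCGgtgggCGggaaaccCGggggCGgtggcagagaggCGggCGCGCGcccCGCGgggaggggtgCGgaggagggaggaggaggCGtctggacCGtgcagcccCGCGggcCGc
Kcnn4, chr7:24370013-24370262, + strand: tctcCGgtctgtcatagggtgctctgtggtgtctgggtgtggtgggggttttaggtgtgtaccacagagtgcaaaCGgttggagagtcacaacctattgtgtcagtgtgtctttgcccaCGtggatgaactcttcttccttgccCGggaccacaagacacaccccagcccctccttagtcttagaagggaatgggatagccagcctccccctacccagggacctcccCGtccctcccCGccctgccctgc
The CG counts of these stretches were 5 for Kcnc2, 7 for Kcnj5, 17 for Kcnj10, 3 for Kcnk4, 20 for Kcnab2, 31 for Kcna3 and 6 for Kcnn4. All 250 bases of the Kcnc2, Kcnj5 and Kcnk4 stretches lay under young H3K27me3 regions, and of these only the Kcnj5 stretch was also covered in aged HSCs, again over 250 bases. Aged H3K4me3 covered 163 bases of the Kcna3 stretch, where no other list had a region.

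The 6 lists differed in length. On the numbered and sex chromosomes, H3K4me3 had 11371 peaks in young and 6723 in aged HSCs, H3K27me3 had 63142 and 20419 regions, and H2AK119ub1 had 2593 and 17768. Read depth per library was unknown from the files. The names of the regions in the H3K27me3 and H2AK119ub1 lists carry 1 library number each, so it is not certain that both libraries entered them. As a check of the cell label, H3K4me3 lay at promoters of 7 of 10 HSC marker genes in young and 6 of 10 in aged HSCs, at none of 13 B cell, T cell and myeloid genes at either age, and at 2 of 5 erythroid genes in young and 0 in aged HSCs. The HSC marker genes with a young peak included Cd34, although the cells were labelled negative for CD34. The genes of 3 surface proteins of the sorting gate, Kit (c-kit), Ly6a (Sca-1) and Slamf1 (CD150), had no H3K4me3 peak in young HSCs, and Ly6a and Slamf1 had none in aged HSCs. H3K27me3 lay at promoters of 29 of 39 Hox genes in young and 23 in aged HSCs and at 0 of 79 cytosolic ribosomal protein genes at both ages, whereas H3K4me3 lay at 50 and 36 of the ribosomal genes.

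H3K27me3 was the mark most often found at potassium channel genes. A region lay at the promoter of 63 of the 93 genes (67.7%) in young HSCs, against 16.5% of all protein-coding genes. In aged HSCs the count was 45 genes (48.4%), against 8.58%. The 2 sets were nested but for 1 gene: 44 genes were marked at both ages (47.3%, against 8.15% of all genes), 19 in young HSCs only (20.4%, against 8.33%) and Kcnf1 in aged HSCs only (1.08%, against 0.426%). Thus 69.8% of the potassium channel promoters with young H3K27me3 also had it in the aged list, against 49.5% over all genes, and 97.8% of those with aged H3K27me3 had it in the young list, against 95%.

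H3K4me3 showed the opposite balance. It lay at 9 potassium channel promoters (9.68%) in young and 10 (10.8%) in aged HSCs, against 34.3% and 23.7% of all genes. Only 5 genes had it at both ages (5.38%, against 17.9%), while 4 had it in young HSCs only (4.3%, against 16.4%) and 5 in aged HSCs only (5.38%, against 5.81%). The aged count was 1.11 times the young count for these genes and 0.691 times over all genes.

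H2AK119ub1 lay at 5 promoters (5.38%, against 2.1% of all genes) in young and at 36 (38.7%, against 14.6%) in aged HSCs. It was found at both ages for 4 genes (4.3%, against 1.67%), in young HSCs only for Kcnk15 (1.08%, against 0.435%) and in aged HSCs only for 32 genes (34.4%, against 13%). The aged count was 7.2 times the young count, and over all genes 6.95 times, so the family's ratio lay close to that over all genes. With both ages held to the same number of H2AK119ub1 regions, by keeping the widest, the counts were 5 and 11 genes, and over all genes 460 and 801. Wider regions meet more promoter windows, so these counts do not correct for list length alone. With regions of −log10 q of at least 2 only, H3K27me3 lay at 59 potassium channel promoters (63.4%) in young and 19 (20.4%) in aged HSCs, against 13.3% and 3.46% of all genes. The aged count at this setting was 0.322 times the young count for these genes and 0.261 times over all genes.

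**Figure D1:**
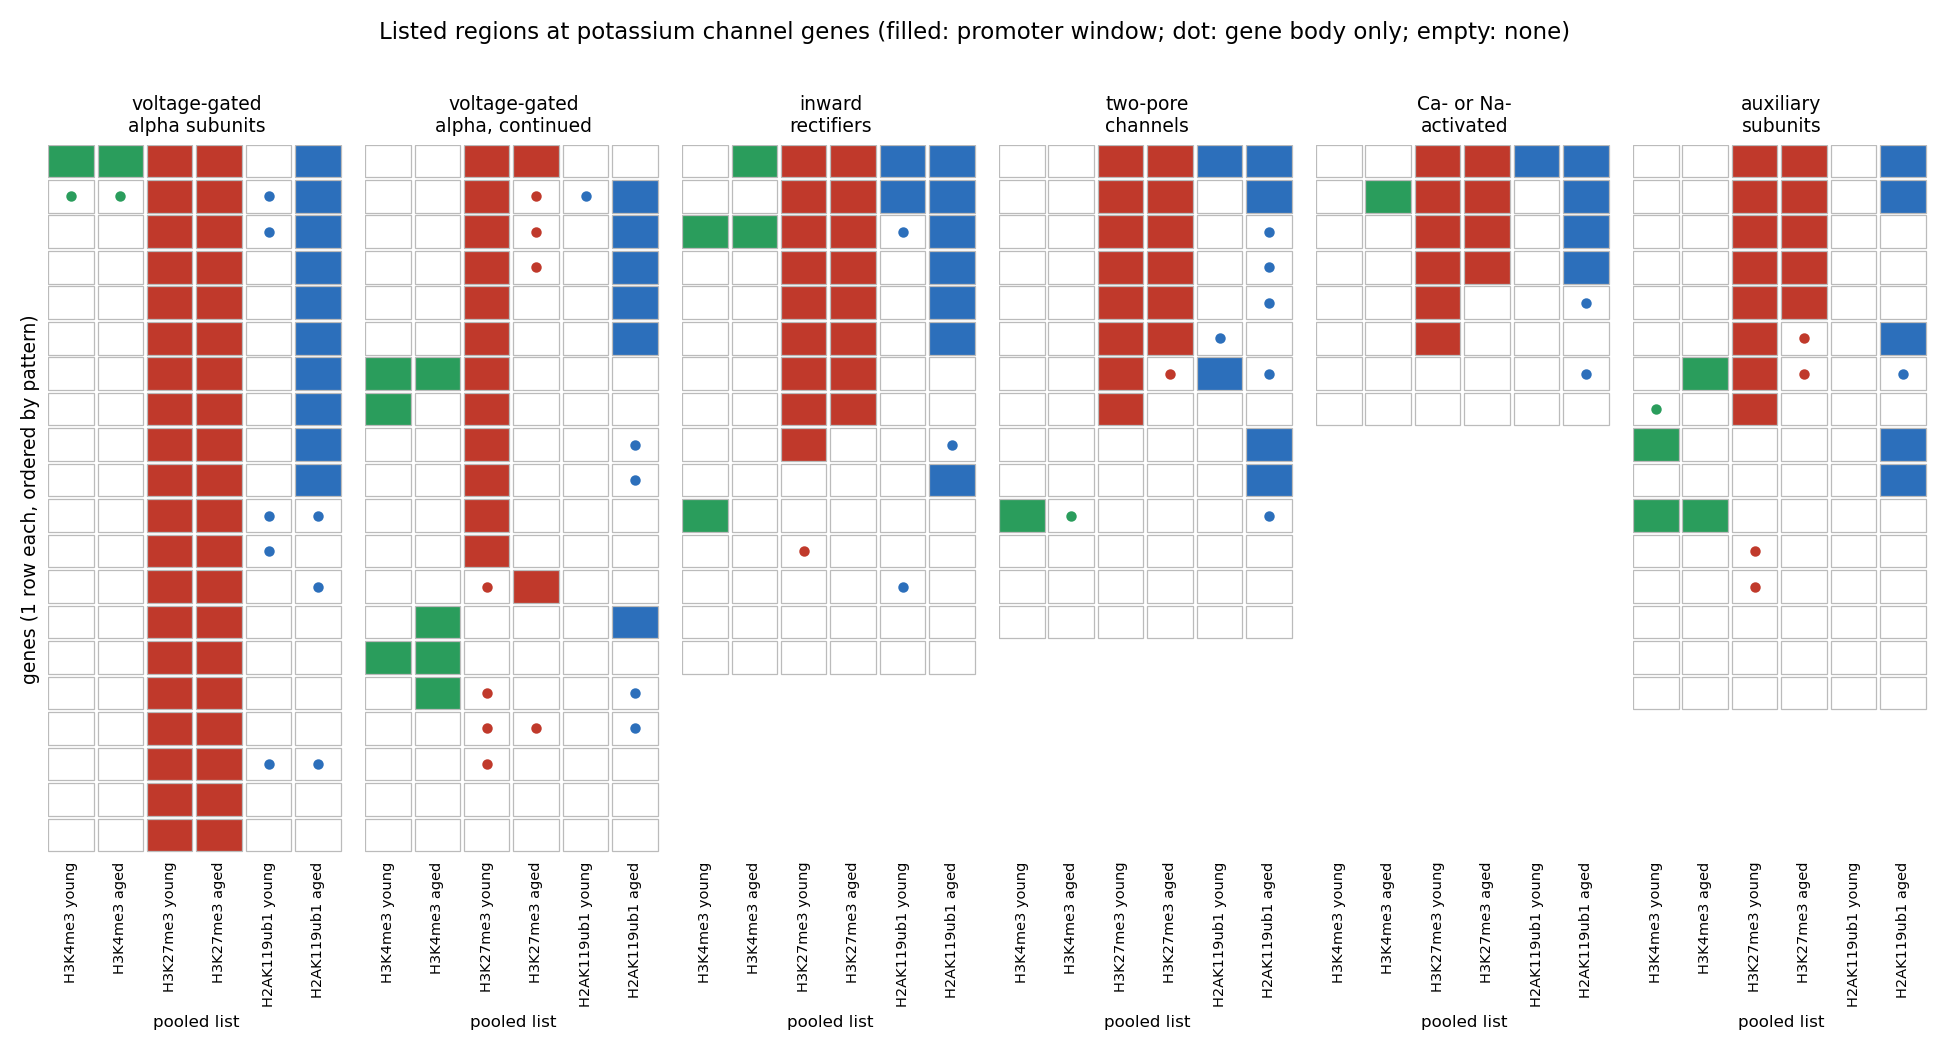
Mark status of the 93 potassium channel genes, in columns by channel class and ordered by their pattern of marks. Each row is a gene and each column 1 of the 6 pooled lists; a filled tile is a region within 1 kb of a start site, a dot is a region in the gene body only, and an empty tile is no region. H3K27me3 (red) fills 63 tiles in young and 45 in aged HSCs, H3K4me3 (green) 9 and 10, and H2AK119ub1 (blue) 5 and 36.

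The voltage-gated alpha subunits form the tetrameric channels that open on depolarization. H3K27me3 lay at the promoters of 32 of these 40 genes (80%) in young and 22 (55%) in aged HSCs, H2AK119ub1 at 0 and 16 (40%), and H3K4me3 at 4 (10%) and 5 (12.5%). In the Shaker family, the widest young H3K27me3 region at any potassium channel promoter lay at Kcna1, with 6910 bp, and the widest aged region there measured 590 bp. Here and below, the widest young and the widest aged region of a gene need not overlap. At Kcna2 the widest region measured 2742 bp in young and 1015 bp in aged HSCs. At Kcna6 it measured 1036 and 270 bp, and at Kcna7 1077 and 611 bp. Kcna5, an atrial delayed rectifier, went the other way, with 309 bp in young and 575 bp in aged HSCs. These regions did not overlap, and the aged Kcna5 region that overlapped the young one measured 458 bp.

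The Kcnc genes encode fast channels of rapidly firing neurons. Kcnc1, Kcnc2 and Kcnc4 had H3K27me3 at the promoter in young HSCs and H2AK119ub1 in aged HSCs, and Kcnc1 and Kcnc2 had H3K27me3 in the aged list too. The widest H3K27me3 region at Kcnc2 measured 5294 bp in young and 528 bp in aged HSCs. At Kcnc1 it measured 2168 and 304 bp. Kcnc4 had 1 young region of 4447 bp and no promoter region in the aged list, where 285 bp of its gene body were covered.

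The Kcnh genes encode the ether-a-go-go family, with Kcnh2 carrying a repolarizing current of the heart. The widest H3K27me3 region at Kcnh3 measured 3442 bp in young and 569 bp in aged HSCs, and at Kcnh5 3494 and 856 bp. At Kcnh1 it measured 1972 and 248 bp, and at Kcnh7 1010 and 352 bp. Kcnh2 differed little in width between the lists, with 574 bp at 4.25-fold in young and 515 bp at 3.08-fold in aged HSCs, where fold is the enrichment over background.

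The Kcnq genes encode slow channels, among them Kcnq1 of heart and epithelia and the neuronal Kcnq3. The widest H3K27me3 region at Kcnq3 measured 1327 bp in young and 1160 bp in aged HSCs, and at Kcnq1 1038 and 269 bp. Kcnq5 had H3K4me3 at both ages and neither Polycomb mark in any list.

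The modifier subunits of the Kcnf, Kcng, Kcns and Kcnv groups form no channel alone and join other alpha subunits. The widest H3K27me3 region at Kcns3 measured 3658 bp in young and 862 bp in aged HSCs, at Kcng1 2042 and 249 bp, and at Kcng2 1819 and 297 bp. At Kcnv1 it measured 1051 and 708 bp. Kcns2 had 391 bp in young and 511 bp in aged HSCs, and so with Kcna5 was 1 of the 2 genes whose widest region was wider in the aged list. The young and aged Kcns2 regions did not overlap. Kcnf1, the single gene with an H3K27me3 promoter region in aged HSCs only, had 446 bp at 3.07-fold, and its body was covered over 522 bp in young HSCs.

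Inward rectifiers pass potassium more easily into than out of the cell. H3K27me3 lay at 9 of 15 promoters (60%) in young and 8 (53.3%) in aged HSCs, H2AK119ub1 at 2 (13.3%) and 7 (46.7%), and H3K4me3 at 2 at each age. The 4 subunits of channels gated by G proteins, Kcnj3, Kcnj5, Kcnj6 and Kcnj9, all had H3K27me3 at both ages. Their widest regions measured 2648 bp in young and 362 bp in aged HSCs at Kcnj3, 2112 and 688 bp at Kcnj5, 1706 and 390 bp at Kcnj6 and 1229 and 457 bp at Kcnj9.

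Among the other inward rectifiers, Kcnj8, which encodes a vascular ATP-sensitive channel, had the widest aged H3K27me3 region of all 93 genes, with 1701 bp, and 3013 bp in young HSCs. Its partner in the ATP-sensitive family, Kcnj11, had no mark at its promoter. At Kcnj4 the widest region measured 2277 bp in young and 200 bp in aged HSCs, and at Kcnj12 1474 and 387 bp. Kcnj10, the main glial inward rectifier, had 841 and 683 bp.

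Two-pore channels carry the background leak current. H3K27me3 lay at 8 of 14 promoters (57.1%) in young and 6 (42.9%) in aged HSCs, H2AK119ub1 at 2 (14.3%) and 4 (28.6%), and H3K4me3 at Kcnk5 alone in young and at 0 in aged HSCs. Kcnk2, Kcnk4 and Kcnk10 form the stretch-sensitive group, and all had H3K27me3 at both ages. Their widest regions measured 2963 and 722 bp, 2089 and 301 bp and 2214 and 381 bp in young and aged HSCs, respectively. The acid-sensitive channel genes differed, with 2280 and 335 bp at Kcnk3 and a region of 1534 bp in young HSCs only at Kcnk9. Kcnk13 had 4829 bp in young and 438 bp in aged HSCs, and Kcnk1 had 1092 and 720 bp.

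Calcium- and sodium-activated channels respond to ions inside the cell. The class was set by symbol, and Kcnu1 was placed in it on that ground alone. H3K27me3 lay at 6 of 8 promoters (75%) in young and 4 (50%) in aged HSCs, H2AK119ub1 at 1 (12.5%) and 4 (50%), and H3K4me3 at 0 and 1 (Kcnn2). The genes with aged H3K27me3 were the same 4 as those with aged H2AK119ub1, namely Kcnma1, Kcnn1, Kcnn2 and Kcnt1. Kcnma1, the large-conductance channel, had 4359 bp as its widest young region and 1039 bp in aged HSCs. The small-conductance genes Kcnn1 and Kcnn2 had 1769 and 314 bp and 1344 and 860 bp, and the sodium-activated Kcnt1 had 602 and 373 bp. Kcnn1 also had the widest aged H2AK119ub1 region at any potassium channel promoter, with 2514 bp.

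Auxiliary subunits modify the gating or surface level of the channels. They had the lowest share of H3K27me3 among the classes, with 8 of 16 promoters (50%) in young and 5 (31.2%) in aged HSCs. H2AK119ub1 lay at 0 and 5 (31.2%) and H3K4me3 at 2 (12.5%) at each age. The widest H3K27me3 region measured 2502 and 983 bp at Kcnab1, a beta subunit of Shaker channels, and 2382 and 966 bp at Kcnmb4, a beta subunit of the large-conductance channel. At the Kv channel-interacting genes it measured 855 and 743 bp for Kcnip2 and 977 and 615 bp for Kcnip4. The X-linked Kcne1l had 1485 and 1061 bp. Kcnip1 and Kcnmb2 had widest regions of 2320 and 2969 bp in young HSCs and no promoter region in the aged list, which covered 3082 and 737 bp of their bodies.

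**Figure D2:**
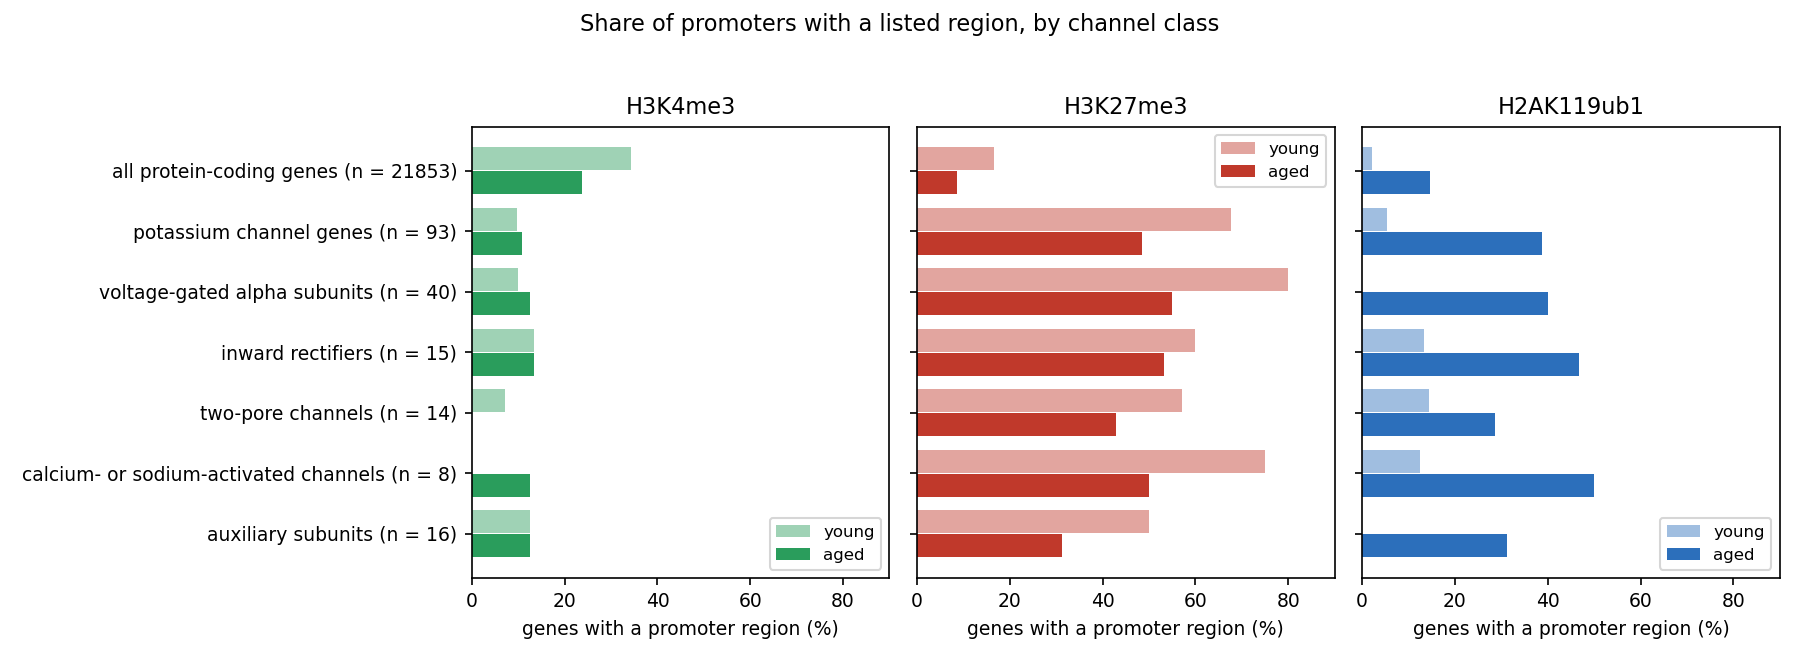
Percentage of genes with a listed region within 1 kb of a start site, for all 21853 protein-coding genes, the 93 potassium channel genes and the 5 channel classes, with 1 panel for each mark. Pale bars are young and full bars aged HSCs; the H3K27me3 share of all classes lies above that of all genes at both ages, from 31.2% for aged auxiliary subunits to 80% for young voltage-gated alpha subunits.

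Widths were compared over the 44 genes with promoter H3K27me3 at both ages. The widest region was narrower in the aged list for 42 of them (95.5%), against 94.3% of the 1782 genes marked at both ages. The regions compared were not required to overlap, and at Kcnk4 and Kcnt1, among others, they did not. The median widest region measured 2007 bp in young and 572 bp in aged HSCs, and over all such genes 2107 and 564 bp. Over all marked potassium channel genes, which are not the same genes at both ages, the median of the highest fold was 3.58 in young (63 genes) and 3.32 in aged HSCs (45 genes), and over all marked genes 3.48 and 3.26.

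H3K4me3 peaks at potassium channel promoters were few. The 12 young peaks had a median width of 244 bp and the 11 aged peaks 292 bp, where the medians of the whole lists were 296 and 270 bp, and 3 peaks in each list lay over a start site. Kcnab2, a beta subunit of Shaker channels, had a peak over its start site at both ages, chr4:152477717-152478158 at 4.46-fold in young and chr4:152477739-152478315 at 3.83-fold in aged HSCs. This peak also lay at the promoter of the neighbouring gene Nphp4, which starts in the opposite direction, so its gene cannot be told from the position. It was the only region of any list at a potassium channel promoter that also lay at the promoter of another protein-coding gene.

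Kcnq5 had 2 peaks at each age, all between 336 and 655 bp from a start site, at 3.83- and 4.24-fold in young and 3.72- and 4.11-fold in aged HSCs. At each age, 1 of them lay within 1 kb of the start of a long noncoding RNA, Gm26580. Kcna4, an A-type channel, had 1 peak at each age, 520 bp from the start site at 4.64-fold in young and 561 bp from it at 3.98-fold in aged HSCs. Kcnc2 had 2 peaks in young HSCs at 4.44- and 4.46-fold and 1 in aged HSCs at 4.2-fold, which did not overlap them. Kcnj5 had 1 peak over its start site at each age, at 4.25- and 4.17-fold.

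Peaks in young HSCs only lay at Kcnj2, a strong inward rectifier, with 3.03- and 2.95-fold, at Kcnk5 with 4.46-fold and 812 bp, the widest of all, at Kcne3 with 4.04-fold and at Kcnh8 with 4.04-fold. Peaks in aged HSCs only lay at Kcnj10 with 5.75-fold, the highest of all, at Kcna3 with 3.98-fold, at Kcnmb2 with 3.7-fold and at Kcnd2 and Kcnn2 with 3.54-fold each. The peaks at Kcna3, Kcne3 and Kcnh8 and 1 of those at Kcnq5 had a width of 200 bp, the smallest in the lists. Equal folds recurred because the H3K4me3 lists held few levels, 382 pairs of fold and q value over 11371 young peaks and 277 pairs over 6723 aged peaks.

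H3K4me3 and H3K27me3 were at the same promoter for 4 genes at each age (4.3%), against 3.13% of all genes in young and 0.901% in aged HSCs. In young HSCs these were Kcna4, Kcnc2, Kcnh8 and Kcnj5, and in aged HSCs Kcnc2, Kcnj5, Kcnj10 and Kcnn2. The regions themselves overlapped at 3 of the 4 genes in young (not at Kcnh8) and at Kcnc2 and Kcnj5 in aged HSCs. At Kcna4 the 2 young H3K27me3 regions measured 357 and 200 bp, and the gene had no H3K27me3 in the aged list. At Kcnh8 a young region of 537 bp lay 458 bp from the start site, and no list had a mark there in aged HSCs. Kcnmb2 had H3K27me3 alone at its promoters in young and H3K4me3 alone in aged HSCs. However, an aged H3K27me3 region lay 1330 bp from a Kcnmb2 start site, outside the 1 kb window, and the young region overlapped an aged one.

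Kcnc2 and Kcnj5 had regions of all 3 marks in aged HSCs that overlapped each other at the promoter. At Kcnc2, a young H3K27me3 region at chr10:112268310-112273603 covered both young H3K4me3 peaks. In aged HSCs, H3K4me3 at chr10:112271379-112271670, H3K27me3 at chr10:112271161-112271688 and H2AK119ub1 at chr10:112271058-112271570 lay together between positions -63 and 567 relative to the 5′ end of the gene. At Kcnj5, aged H3K4me3 at chr9:32344150-32344389, H3K27me3 at chr9:32344314-32344845 and H2AK119ub1 at chr9:32344282-32344484 lay across the start site. Marks in the same window need not be on the same nucleosome or in the same cells, since the lists came from pooled cells.

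**Figure D3:**
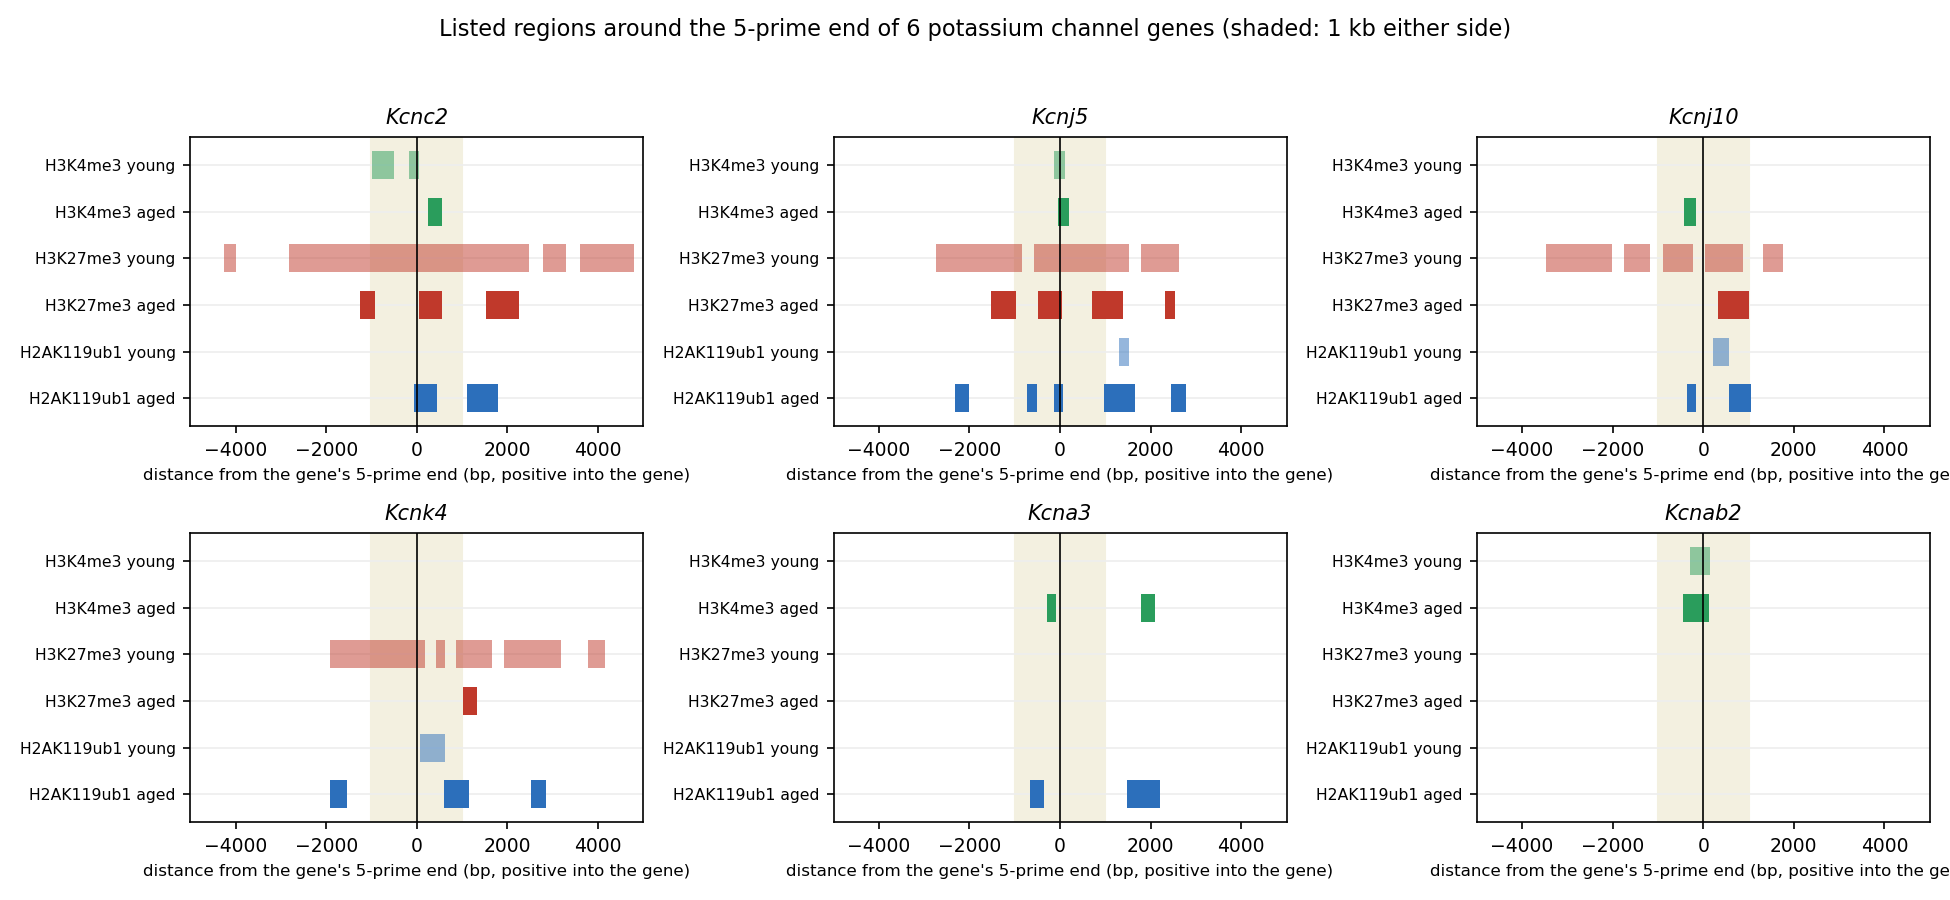
Listed regions within 5000 bp of the annotated 5′ end of Kcnc2, Kcnj5, Kcnj10, Kcnk4, Kcna3 and Kcnab2. The horizontal axis is the distance in bp, positive into the gene, each bar is a region of the named list (pale for young, full for aged), and the shaded band is 1 kb on either side. The 5294 bp young H3K27me3 region at Kcnc2 stands opposite aged regions of 340 and 528 bp within 1 kb, and Kcnab2 shows H3K4me3 only.

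H3K27me3 and H2AK119ub1 were at the same promoter for 5 genes in young HSCs (5.38%, against 1.81% of all genes) and 24 in aged HSCs (25.8%, against 5.28%). The 5 young genes were all those with H2AK119ub1, namely Kcnj4, Kcnj10, Kcnk4, Kcnk15 and Kcnn1, and at each the 2 marks' regions overlapped. Their young H2AK119ub1 regions measured 232 bp at 3.84-fold, 360 bp at 3.48-fold, 552 bp at 3.18-fold, 291 bp at 3.19-fold and 257 bp at 3.07-fold, in that order. In aged HSCs the regions of the marks overlapped at 15 of the 24 genes (62.5%), against 75.2% of the 1153 genes of this kind.

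Most aged H2AK119ub1 lay at genes with H3K27me3 in the young list. This held for 30 of the 36 genes (83.3%), against 56.3% over all genes, where promoter H3K27me3 itself was less common. Of the 32 genes with H2AK119ub1 in aged HSCs only, 20 had H3K27me3 at both ages, 6 in young HSCs only and 6 at neither age. Read from the H3K27me3 side, aged-only H2AK119ub1 lay at 45.5% of the genes with H3K27me3 at both ages and at 31.6% of those with it in young HSCs only. Over all genes these shares were 48.4% and 32.8%. Among genes with H3K27me3 at neither age the shares lay further apart, at 20.7% of potassium channel genes and 7.47% of all genes.

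Kcnc4, Kcnd3, Kcnip1 and Kcns1 were among the 6 genes with young-only H3K27me3 and aged-only H2AK119ub1. Young-only refers to the 1 kb window. The nearest aged H3K27me3 region lay 1144 bp from a start site at Kcnc4, 1107 bp at Kcnd3 and 1783 bp at Kcnip1. At Kcns1 it lay 251434 bp away. Kcnd3 encodes an A-type channel and Kcnip1 a partner of such channels. The highest aged H2AK119ub1 fold among all 93 genes was at Kcnc4, with 4.67, followed by Kcns1 with 4.46. Kcnd3 had an aged region of 751 bp at 3.87-fold, and Kcnip1 had one of 376 bp at 3.16-fold. The 6 genes with aged H2AK119ub1 and H3K27me3 at neither age were Kcna3, Kcne3, Kcnip3, Kcnj1, Kcnk6 and Kcnk12, with widest regions from 228 bp at the kidney channel gene Kcnj1 to 838 bp at Kcnip3. Over all 36 genes the median widest aged H2AK119ub1 region measured 450 bp and the median highest fold was 3.29.

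Kcnn4 and Kcna3 are the members best known in blood cells. Kcnn4, the intermediate-conductance channel of red cells and lymphocytes, had no region of any list at its promoters, and 332 bp of its body lay under aged H2AK119ub1. The nearest H3K4me3 peak to a Kcnn4 start site was 99792 bp away in young and 159748 bp away in aged HSCs. Kcna3, the voltage-gated channel of T lymphocytes, had no region in the 3 young lists. In aged HSCs it had H3K4me3 at chr3:107035875-107036074, 95 bp before the start site, and H2AK119ub1 at chr3:107035500-107035820 at 2.99-fold, and these regions did not overlap. Toward the end of the gene, a further aged H3K4me3 peak from 1788 to 2089 bp after the 5′ end lay inside an aged H2AK119ub1 region from 1489 to 2211 bp.

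Gene bodies followed the promoters. H3K27me3 lay in the body of 66 genes (71%, against 19.4% of all genes) in young and 47 (50.5%, against 11.1%) in aged HSCs. H2AK119ub1 lay in the body of 11 (11.8%, against 3.53%) and 45 (48.4%, against 17.9%), and H3K4me3 in the body of 4 (4.3%) at each age, against 7.77% and 4.23%. The genes were longer than others, with a median span of 32 kb against 17.4 kb, and a longer gene meets more regions.

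Coverage takes length into account. Young H3K27me3 regions covered 294 kb, or 2.89%, of the 10.2 Mb of potassium channel gene bodies, against 1.63% of all gene bodies. Aged regions covered 39.1 kb, or 0.384%, against 0.386%. The young list thus covered the potassium channel gene bodies more densely than the average gene body, and the aged list about equally, with a young-to-aged ratio of 7.52 for these genes and 4.21 over all genes. Over whole gene spans, promoters included, aged regions covered 0.553% of the potassium channel genes, against 0.44% over all genes. With both ages held to the same number of regions, by keeping the widest young ones, the gene-body ratios were 4.49 and 2.75. Choosing by width favours covered bases in the young list, so these ratios do not correct for list length alone. With regions of −log10 q of at least 2 only, the ratios were 15.2 and 8.24. Aged coverage was lower in 64 of the 69 genes covered in either list (over all genes in 94.9%) and higher in Kcna2, Kcna5, Kcnab1, Kcne1l and Kcnip2.

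Long genes held much of the young coverage. Kcnma1, which spans 725061 bp, had 103 young regions in its body over 50245 bp and 8 aged regions over 3081 bp. Without it, the family's young-to-aged ratio was 6.77. Kcnip1 had 28911 and 3082 bp covered, and Kcnk2 had 16632 and 1442 bp. Kcnj6 had 16376 and 2089 bp, Kcnn2 13340 and 1831 bp, and Kcnh1 11382 and 764 bp. Kcnq3 had 9475 and 1196 bp. The shorter Kcna6 had 7887 and 1045 bp covered, which in young HSCs was 25.6% of its body.

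H2AK119ub1 coverage moved the other way, from 3.64 kb (0.0358% of the bodies) in young to 29.8 kb (0.293%) in aged HSCs, against 0.0392% and 0.313% over all gene bodies. The aged coverage was 8.18 times the young coverage, against 8 times over all genes. With the same number of regions at both ages, by keeping the widest aged ones, it was 1.89 times, against 2.53 times over all genes. This choice by width favours covered bases in the aged list, so these 2 ratios do not correct for list length alone. With regions of −log10 q of at least 2 only, the ratio was 3.36 for these genes and 9.16 over all genes. Kcnq1 had the most in the aged list, with 4727 bp, and had 208 bp in the young list. Kcnh3 had 2022 bp and Kcnc4 1541 bp in the aged list. H3K4me3 lay in the bodies of Kcng1 and Kcnk5 at both ages, of Kcnab3 and Kcnq5 in young HSCs and of Kcna3 and Kcnn2 in aged HSCs.

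**Figure D4:**
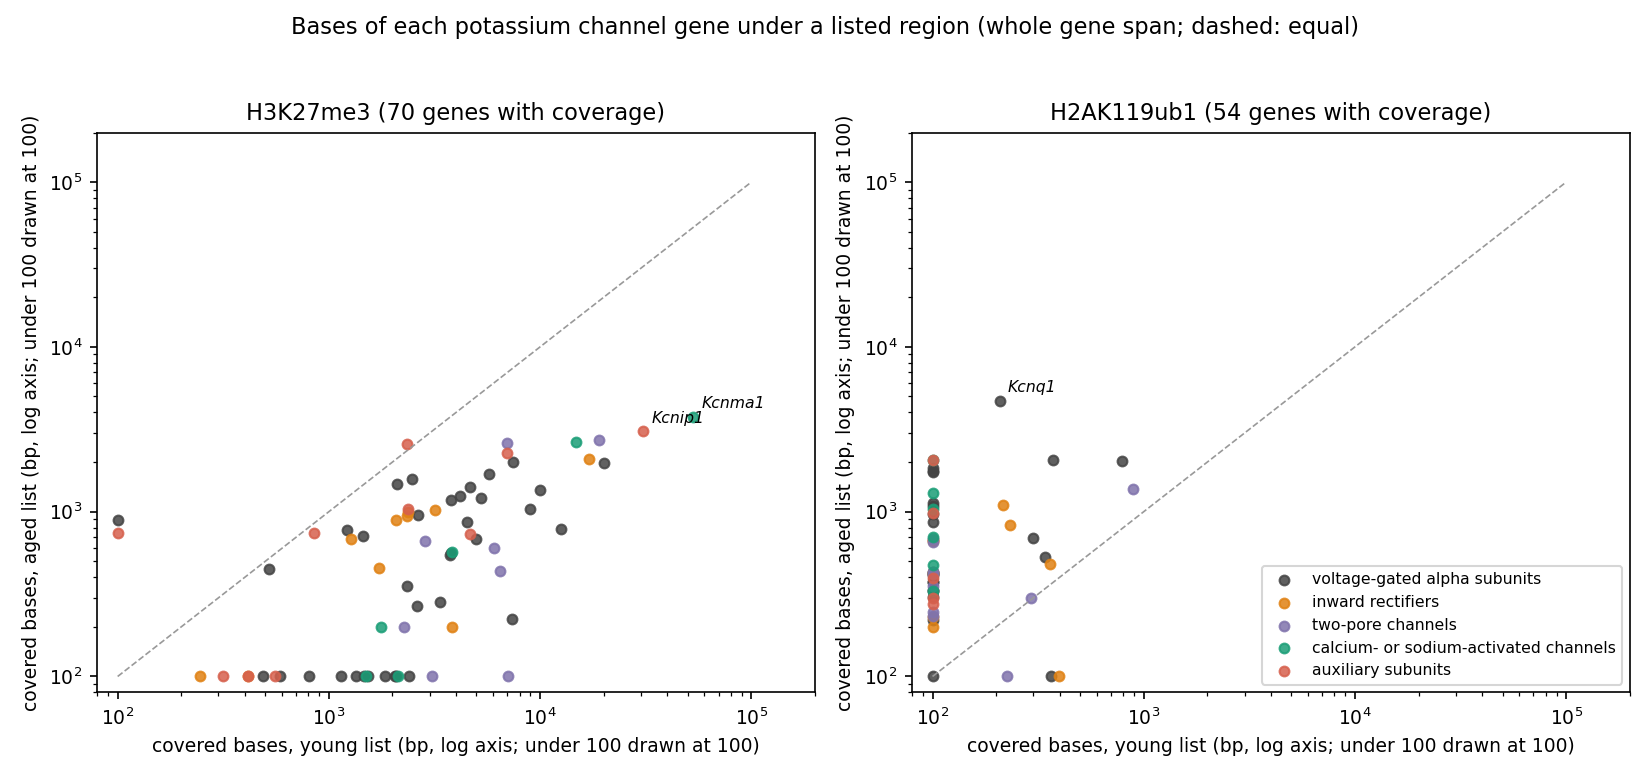
Bases of each potassium channel gene (whole annotated span) under H3K27me3 regions (left, 70 genes) and H2AK119ub1 regions (right, 54 genes), with the young list on the horizontal and the aged list on the vertical axis, both logarithmic and in bp. Each point is a gene coloured by class, values under 100 bp are drawn at 100 and the dashed line marks equal coverage; 67 genes lie below the line for H3K27me3 and 51 above it for H2AK119ub1.

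CpG content was compared because Polycomb marks in mammals are found mainly at CpG-rich promoters. It was measured as the ratio of observed to expected CG dinucleotides in the 2001 bp around the annotated 5′ end of each gene. Marks were counted at any annotated start site, so the window measured need not be the marked promoter. At Kcnip1 (ratio 0.285), for example, the H3K27me3 promoter regions lay at a start site far from the 5′ end. The median ratio was 0.478 over the 93 potassium channel genes and 0.474 over all genes. The 63 genes with young H3K27me3 had a median of 0.512 and the 30 without it 0.274, whereas over all genes the medians were 0.516 and 0.459. The 18 genes with no mark at the promoter in any list had a median of 0.238, with a highest value of 0.448 at Kcnj11. The 44 genes with H3K27me3 at both ages and the 19 with it in young HSCs only had similar medians of 0.511 and 0.536.

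Within bands of this ratio, the share of genes with promoter H3K27me3 was higher for potassium channel genes than for all genes. Whether CpG content accounts for the family's higher share was not tested. Below 0.4, young H3K27me3 lay at a promoter of 14 of 34 potassium channel genes (41.2%), against 12.3% of all genes in that band. Between 0.4 and 0.6 it lay at 30 of 35 (85.7%), against 23.2%, and from 0.6 upward at 19 of 24 (79.2%), against 17.4%. In aged HSCs the shares were 23.5%, 74.3% and 45.8%, against 5.09%, 13.6% and 9.68%. H3K4me3 differed in the other direction in the CpG-richer bands, with 14.3% and 8.33% in young HSCs, against 45.9% and 57.9%.

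**Figure D5:**
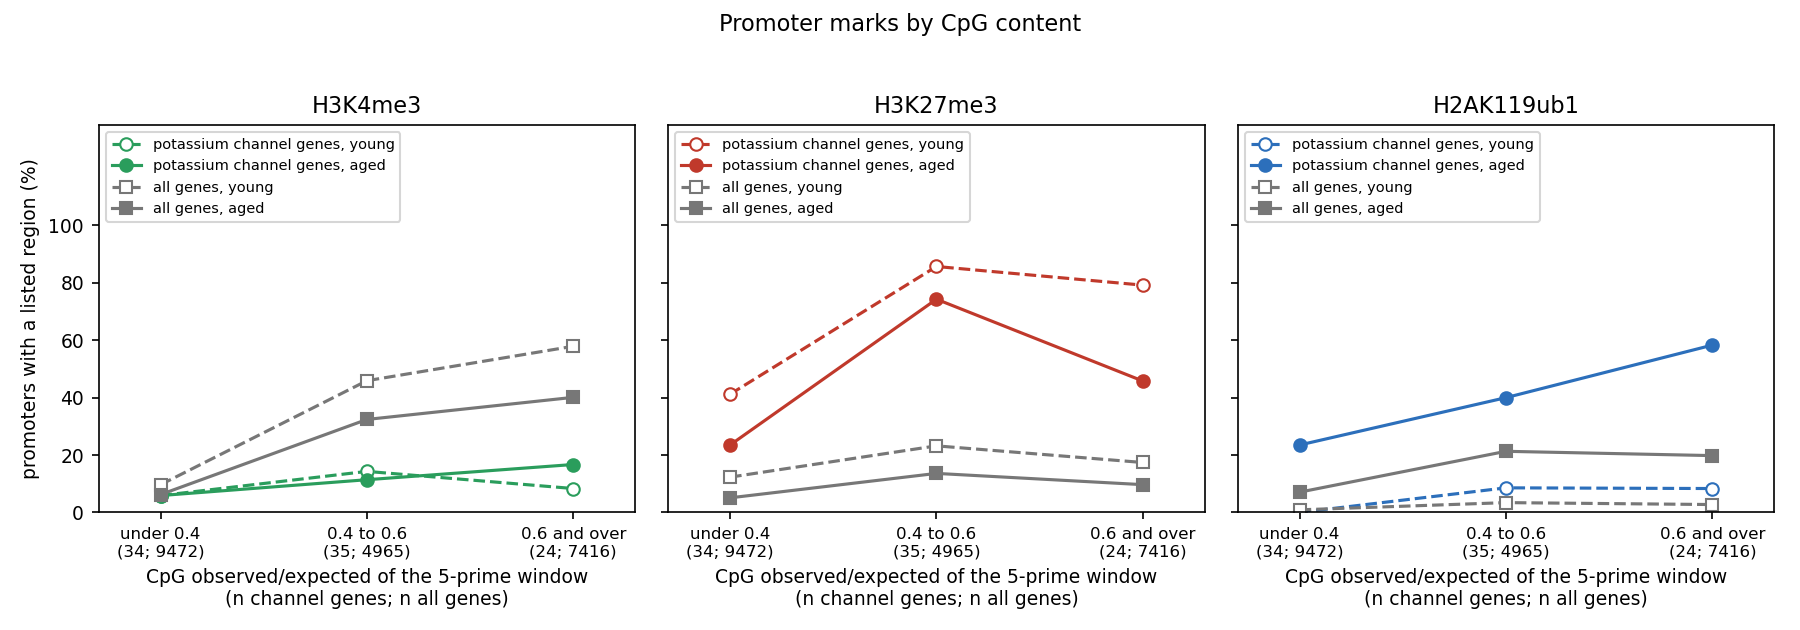
Percentage of genes with a listed region at any promoter, in 3 bands of the observed-to-expected CG ratio around the gene's 5′ end, with 1 panel for each mark. Coloured circles are potassium channel genes and grey squares all genes, open symbols with dashed lines are young and filled symbols with full lines aged HSCs, and the number of genes in each band stands under the axis. For H3K27me3 the potassium channel genes lie above all genes in each band, 85.7% against 23.2% in the middle band of young HSCs.

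No mark was listed at the promoters of 18 potassium channel genes (19.4%, against 44.2% of all genes), and 11 had no region of any list in promoter or body (11.8%, against 37%). These 11 were Kcnd1, Kcne1, Kcne4, Kcnj13, Kcnj16, Kcnk7, Kcnk16, Kcnk18, Kcnmb1, Kcnu1 and Kcnv2. The other 7 had regions in the body only: young H3K27me3 in Kcna10, Kcne2, Kcnj14 and Kcnmb3, H3K27me3 at both ages with aged H2AK119ub1 in Kcnh6, young H2AK119ub1 in Kcnj11 and aged H2AK119ub1 in Kcnn4. A gene without a listed region may still carry a mark below the threshold of the lists.

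Other ion transport families were read in the same way. Promoter H3K27me3 lay at 18 of 26 genes of voltage-gated calcium channel subunits (69.2%) in young and 13 (50%) in aged HSCs, shares close to those of the potassium channels. It lay at 6 of 14 voltage-gated sodium channel genes (42.9%) at each age and at 14 (43.8%) and 5 (15.6%) of 32 HCN and TRP channel genes. The 9 voltage-gated chloride channel genes had none at either age, and 3 of them had H3K4me3 in young HSCs. The sodium-potassium ATPase and cation-chloride cotransporter genes had H3K27me3 at 5 (29.4%) and 2 (11.8%) of 17 promoters and aged H2AK119ub1 at 7 (41.2%). The differences between families were not tested.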

How the data were processed

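Chromatin of sorted HSCs was cross-linked, sonicated, digested with micrococcal nuclease and immunoprecipitated, and the authors aligned single reads to mm10 with Bowtie2 at default settings. The submitters' processing notes name MACS2 2.2.6. The deposited lists are pooled by mark and age, in the narrow layout for H3K4me3 and the broad layout for the other marks, and the calling threshold is not given in the sources used here. Per the file layout, each region has a fold enrichment over background (a linear ratio) and −log10 p-values and q-values, which the authors' peak caller wrote, with no scaling between lists; folds of young and aged HSCs are set side by side as deposited. Regions on unplaced scaffolds (11 in all) were left out.

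Regions were counted at a gene when at least 1 bp overlapped a window of 1 kb on either side of any of 54361 start sites of protein-coding transcripts (GENCODE M21), or the gene outside its own windows. Overlaps were computed in Python 3.11.15 with pandas 2.3.3 and gave the same genes as bedtools 2.31.1 in all 6 lists, after a check on simulated intervals. Sequences came from RefSeq tables and the GRCm38.p6 genome. All libraries of a mark and age formed 1 group; young and aged were described side by side with no test, since no list of a single library was used here. The genes named with values were those with H3K4me3 at either age, aged H3K27me3 or young H2AK119ub1 at the promoter, the 10 with the widest young H3K27me3 promoter region, the 10 with most young H3K27me3 in the body, and Kcnn4 and Kcna3; others were named after their values were seen, and some genes that meet this rule are not reported here. The family, classes and lists were chosen with earlier results of these data known. Alternatives were windows of 500 bp and 2 kb, basic transcripts only, an overlap of 200 bp, −log10 q of at least 2, the same number of regions at both ages (the longer list cut by −log10 q for H3K4me3 and by width otherwise), and whole gene spans.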

Additional observations from a re-analysis of the deposited data

How the results depend on the processing

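No paired analysis was possible because libraries of a mark and age were merged into 1 list, and for the same reason no replicate could be left out. Alternatives for combinations of marks, channel classes and covered bases were chosen after seeing the data. Of 84 recomputed counts over the family, 64 stayed within 1.5 times the reported count. Requiring −log10 q of at least 2 gave 19 promoters and 19 gene bodies with aged H3K27me3 (20.4% each, against 3.46% and 5.02% of all genes), 2 young and 15 aged promoters with H2AK119ub1 (2.15% and 16.1%, against 0.741% and 6.11%), 5 young and 15 aged bodies with it (5.38% and 16.1%, against 1.43% and 7.31%), 1 aged promoter with H3K4me3 and H3K27me3, and 2 promoters at each age with H3K27me3 and H2AK119ub1. With the same number of regions at both ages, aged H2AK119ub1 lay at 11 promoters (11.8%, against 3.67% of all genes) and in 13 bodies (14%, against 3.85%). Young H3K4me3 with H3K27me3 then lay at 2 promoters and aged H3K27me3 with H2AK119ub1 at 6. Windows of 500 bp gave 3 young promoters with H2AK119ub1 (3.23%, against 1.06% of all genes), 3 young promoters with both Polycomb marks and 11 aged ones. Windows of 2 kb gave 11 young promoters with H2AK119ub1 (11.8%, against 3.31% of all genes) and 11 with both. For pairs of marks, no share over all genes was computed under these alternative settings. Those pair counts therefore cannot be told apart from a shift over all genes. Counting whole gene spans gave 10 genes with H3K4me3 at each age (10.8%, against 32% of all genes in young and 21.4% in aged HSCs). The family's share of promoter H3K27me3 exceeded that of all genes, and its share of H3K4me3 was lower, under each promoter setting at both ages. The H3K4me3 count was higher in aged than in young HSCs under 6 of the 7 settings and lower with 500 bp windows (8 and 7). Depth per library was unknown, so a mark without a listed region may have been missed at this depth rather than absent.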
